A study of Mus musculus with 5 samples.

Results

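The glycolytic enzyme mRNAs are the transcripts of 10 genes, Gpi1, Aldoa, Tpi1, Gapdh, Pgk1, Pgam1, Eno1, Pkm, Ldha and Ldhb, that encode enzymes of the glycolytic pathway and the lactate dehydrogenase subunits. They were chosen by name, and their positions were the adenosine calls that lay on their exons (mm10, GENCODE M21) on the strand of the call. Of 2641 genes with exonic calls in the METTL3 inhibition dataset, 6 were members, namely Gpi1, Aldoa, Tpi1, Pgam1, Pkm and Ldha, with 1023 of 471848 positions. Of 1048 such genes in the Mettl5 dataset, 4 were members, namely Aldoa, Tpi1, Pkm and Ldha, with 711 of 195787 positions. No position analysed here lay on Gapdh, Pgk1, Eno1 or Ldhb in either dataset, so nothing is said of their m6A.

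The study asked by native RNA nanopore sequencing how m6A in mRNA of mouse embryonic stem cells (mESCs) responds to a METTL3 inhibitor and to loss of Mettl5. In the METTL3 inhibition dataset, 1 library came from cells given 30 µM STM2457 for 48 h and 1 from cells given DMSO at 0.025% by volume. The labels give both as WT, and per the study's methods both came from E14 mESCs that carry the reporters 2C::3xtbGFP-PEST and Zscan4::mCherry-PEST, the Dox::APOBEC1-YTH-HA-IRES-tdiRFP construct and a homozygous METTL3-FKBP12F36V knock-in, the last 2 of them not induced. In the Mettl5 dataset, 1 library each came from untreated WT mESCs, Mettl5-KO clone #1 and Mettl5-KO clone #2, lines made in an earlier study, and each clone is 1 cell line set against the same WT library. All cells were grown on gelatin in serum and LIF, with MEK and GSK3 inhibitors for maintenance. The datasets differ in cell line and in the batch named by the labels, and these cannot be told apart. With 1 library per treatment or clone, each test below compares libraries by their reads, and no difference has a replicate check.

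m6A is written on nascent mRNA by the METTL3 and METTL14 complex, mostly at DRACH motifs (D is A, G or T, R is A or G, H is A, C or T, and the central A is methylated) in long internal exons, around stop codons and in 3′ UTRs. METTL5 methylates 18S ribosomal RNA, and STM2457 blocks the catalytic site of METTL3. Glycolysis turns glucose into pyruvate, and lactate dehydrogenase turns pyruvate into lactate. Its enzymes are among the most abundant proteins of proliferating cells, mESCs rely on the pathway strongly, and several of their genes have many processed pseudogenes.

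The m6A level of a position is the share of its valid calls, those that passed the caller's confidence filter, that were called m6A. A site is a position with more than 25 valid calls in every library of its dataset and a level that reaches 25% in 1 of them or more. Intervals are exact (Clopper-Pearson) at 95% and hold counting error alone. The sequences below are the 25 bases of the GENCODE M21 transcript around the called base, 12 on each side, with the 5-base motif in capitals. They are shown so that the motifs of positions called lower after STM2457 can be set beside those of positions that were not. The first 7 fell after STM2457 and have DRACH letters, apart from Pkm base 2147, which is treated further down. The last 3 reached 25% in some library, and none of them is DRACH. The list is a selection, so it does not show how closely motif and decrease go together. It leaves out Tpi1 base 1231, which was called lower, and Ldha base 1371, which reached 25% in clone #2. Also left out are Pgam1 base 972 and base 1226, which are DRACH and were not called.
Tpi1 base 961: tgcatagcatGGACTaggttgccca
Tpi1 base 1172: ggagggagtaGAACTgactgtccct
Tpi1 base 1176: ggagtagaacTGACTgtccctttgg
Gpi1 base 1939: agctggtctgGAACTgccatccacc
Pgam1 base 1510: aggttgctagTGACAtttgaaacag
Pkm base 2102: gaggaatgcaGGACTggaaaccctg
Pkm base 2147: cagcatctctGGGCTttgcttctgt
Tpi1 base 1463: tgtaagggaaATAAAcacctgggcc
Aldoa base 473: tgatcctcttCCACGagacactgta
Aldoa base 982: gaggagattgCCATGgcaacggtca

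The libraries held between 17897440 and 71574467 valid calls, and the members took from 0.512% to 0.824% of them. No position analysed here lay on Mettl3 or Mettl5, so the targeted genes give no check of the labels. Of 12 genes that mark mESCs, 11 had positions in the METTL3 inhibition dataset and 9 in the Mettl5 dataset, with summed scaled coverage (mean valid calls per position, scaled to 1000000 valid calls in the library) of 85.2 to 89.3 and 54.7 to 61.8. Dppa5a alone gave 56.9 of the 89.3 in DMSO. Single markers differed more than the sums. In clone #1 and clone #2, Zfp42 was at 0.455 and 0.438 of WT, and Klf2 at 0.509 and 0.625. The other covered markers ran from 0.807 for Sox2 to 1.59 for L1td1 in the clones. In STM2457, Nanog was at 0.590 of DMSO, L1td1 at 1.61 and Tdh at 2.62. The other covered markers ran from 0.782 for Pou5f1 to 1.11 for Zfp42 there. All 6 markers of fibroblasts or feeder cells were without positions in both datasets. Of 6 endoderm markers 1 had positions, at 1.12 to 1.61 in the METTL3 inhibition dataset and 3.40 to 5.17 in the Mettl5 dataset. Of 5 mesoderm and neural markers 1 had positions, in the METTL3 inhibition dataset alone.

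Calls lay on the last exon of each covered mRNA, and in Tpi1 and Aldoa they reached earlier exons too. In Pkm, pyruvate kinase, calls lay on exon 11 of 11 alone, over 573 bases, so the exons that tell its M1 and M2 isoforms apart were not measured. In Ldha, the A subunit of lactate dehydrogenase, they lay on exon 8 of 8 over 640 bases of Ldha-201, and in Pgam1, phosphoglycerate mutase, on exon 4 of 4 over 947 bases. In Gpi1, which interconverts glucose 6-phosphate and fructose 6-phosphate, 27 positions lay within 141 bases of exon 18 of 18, from base 1913 to base 2053 of a transcript of 2884. In Tpi1, triosephosphate isomerase, calls reached back over an intron of 129 bases into exon 6 of 7 and stopped at an intron of 277 bases. In Aldoa, the aldolase that splits fructose 1,6-bisphosphate, they reached exon 2 of 9 and stopped at an intron of 1268 bases, with 129 positions in exons 2 to 5 and 169 in exons 6 to 9 of Aldoa-201. The rest of its 332 positions lay on exons of other Aldoa transcripts. Of the 1023 positions, 196 had a surrounding stretch of 31 bases that also occurs in a transcript of another gene, 130 of them in Aldoa and 37 in Tpi1.

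The first question was which adenosines of these mRNAs carry m6A that depends on METTL3. Tpi1 carried the most strongly methylated adenosine of the members, 37 bases after its stop codon, and it lost most of its m6A after STM2457. This position, in GGACT at chr6:124811232 on the minus strand in exon 7, was m6A in 563 of 906 valid calls in DMSO, 62.1% (58.9 to 65.3). In STM2457 it was m6A in 37 of 429 calls, 8.62% (6.15 to 11.7). The relative decrease was 86.1%, and the libraries differed by Fisher's exact test, two-sided, with an adjusted p of 1.66e-82 over 6201 sites.

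Gpi1 had the other called site, 139 bases after the stop codon in GAACT at chr7:34202275 on the minus strand. It was m6A in 8 of 26 valid calls in DMSO, 30.8% (14.3 to 51.8), and in 0 of 33 in STM2457, where the upper bound is 10.6%. The adjusted p was 0.000925 by Fisher's exact test. With 26 calls this position was close to the minimum of the definition, and its level in DMSO could lie on either side of 25%.

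Of the 4 member sites of this dataset, 2 were thus called lower after STM2457, and over all genes 91.5% of 6201 sites were. None of the 4 was called higher, against 0.323% of all sites. At the other two the intervals of both libraries overlapped. Tpi1 base 1463, in ATAAA at chr6:124810730, lies in the letters AAATAAA, 539 bases after the stop codon. It was m6A in 174 of 516 calls in DMSO, 33.7% (29.6 to 38.0), and in 94 of 249 in STM2457, 37.8% (31.7 to 44.1), with an adjusted p of 0.306 by Fisher's exact test. Aldoa base 473, in CCACG at chr7:126797419 on the minus strand, lies in the coding sequence in exon 3. It was m6A in 50 of 167 calls in DMSO, 29.9% (23.1 to 37.5), and in 30 of 111 in STM2457, 27.0% (19.0 to 36.3), with an adjusted p of 0.698 by Fisher's exact test.

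At these 2 positions a large part of the calls had failed the confidence filter. In DMSO the failed share was 46.6% at Tpi1 base 1463 and 46.8% at Aldoa base 473, against 1.63% at Tpi1 base 961 and 3.70% at Gpi1 base 1939. Over all positions of the library it was 8.77%. A relative decrease under 25% was found at 2 of the 4 member sites and at 4.38% of 6096 sites at 25% or more in DMSO. Over all genes, sites with so small a decrease had a median failed share of 35.6%, and 30.3% of them were DRACH. The other sites had a median failed share of 3.30%, and 92.8% were DRACH. With failed calls counted in the denominator, both member positions left the set, and both called sites stayed in it and remained called.

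**Figure D1:**
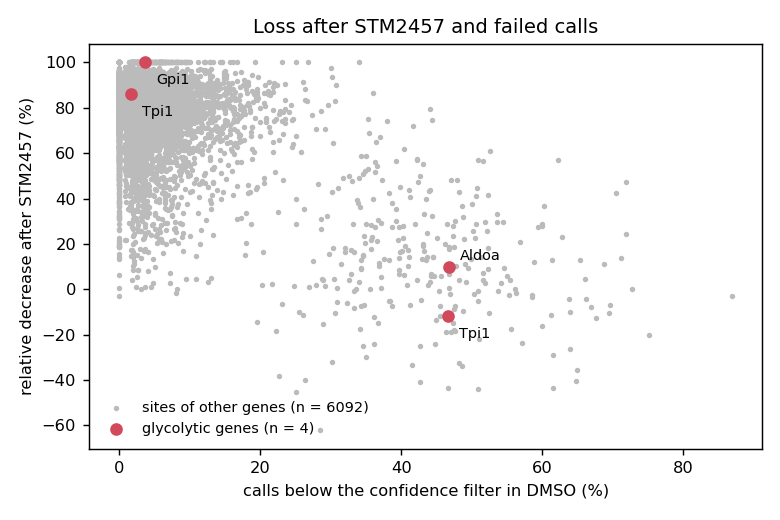
Relative decrease of the m6A level after STM2457 (y axis, %) against the share of calls below the confidence filter in DMSO (x axis, %) for the 6096 sites at 25% or more in DMSO. The glycolytic sites are the 4 red points. Tpi1 base 961 and Gpi1 lie at the upper left, with failed shares of 1.63% and 3.70%. Aldoa base 473 and Tpi1 base 1463 lie near a decrease of 0, with failed shares of 46.8% and 46.6%.

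Below 25%, further DRACH adenosines of the 3′ UTRs fell. Taking every position at 10% or more in either library, 22 lay on the members, of which 8 were called lower and none higher. Over all genes, 53.3% of 15231 such positions were called lower and 0.657% higher. The p-values below are adjusted over those 15231. Tpi1 base 1172 in GAACT went from 182 of 910 calls, 20%, to 17 of 446, 3.81% (Fisher's exact test, adjusted p 1.29e-16). Tpi1 base 1176 in TGACT, just downstream, went from 160 of 906, 17.7%, to 15 of 436, 3.44% (Fisher's exact test, adjusted p 4.29e-14). These neighbours share their reads and are not independent.

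Tpi1 base 1231 in AAACT went from 12.3% of 928 calls to 0.450% of 444 (Fisher's exact test, adjusted p 9.68e-17). Its surrounding 31 bases also occur in a transcript of Spsb2. Tpi1 thus held 4 of the 8 positions called lower, all of them in the last exon. Over its 14 DRACH adenosines together, 10.3% of calls (9.78 to 10.8) were m6A in DMSO and 1.53% (1.24 to 1.87) in STM2457.

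Pgam1 base 1510 in TGACA, at chr19:41918395 and 620 bases after the stop codon, was just below the site threshold. It was m6A in 16 of 65 calls in DMSO, 24.6%, and in 3 of 67 in STM2457, 4.48% (adjusted p 0.00267, Fisher's exact test). A pair of further DRACH positions of Pgam1 did not pass the test. Base 972 in TGACT had 19.4% of 36 calls in DMSO and 8.57% of 35 in STM2457 (adjusted p 0.393, Fisher's exact test). Base 1226 in GAACT had 13.1% of 61 calls and 6.45% of 62 (Fisher's exact test, adjusted p 0.320). Coverage was low, and what size of decrease could be called there was not tested.

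Pkm carried a pair of called positions, both in the 3′ UTR. Base 2102 in GGACT, 211 bases after the stop codon at chr9:59679045, was m6A in 18 of 131 calls in DMSO, 13.7%, and in 2 of 125 in STM2457, 1.60% (adjusted p 0.000746, Fisher's exact test). Base 2147, at chr9:59679090, stands in GGGCT in the reference, whose base there is G. Of the reads in DMSO, 141 of 142 had A (G2147A, counted from base 1 of Pkm-201), and so did 133 of 134 in STM2457 and 61 of 62 in WT. Read with that base, the motif was GGACT. It was m6A in 34 of 140 calls in DMSO, 24.3% (17.4 to 32.2), just below the site threshold, and in 5 of 127 in STM2457, 3.94% (adjusted p 5.78e-06, Fisher's exact test).

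Sorted by the letters of the reads, 10 of the 22 positions were DRACH and 12 were not. Of the 10, 8 were called lower, and of the 12, none was, with adjusted p-values from 0.0911 to 1 by Fisher's exact test. These counts depend in part on the filter. Among the 12, Pkm base 1891, Pgam1 base 1351 and Tpi1 base 1083 reached 10% in STM2457 alone, so they could not be called lower. All 10 DRACH positions reached 10% in DMSO. The failed share in DMSO ran from 0% to 3.70% in the DRACH group and from 9.80% to 46.8% in the other, so these groups did not overlap. This split was made after the values were seen, and it holds for these member positions alone. Over all genes, the 6096 sites at the higher level threshold in DMSO included 604 that were not DRACH. Their median relative decrease was 64.9%, against 80.8% for the 5492 DRACH sites. A decrease under the limit used above was found at 30.8% of the former and 1.47% of the latter. Most of those 604 sites thus did fall after STM2457. That comparison used a higher level threshold and relative decrease in place of calls, so it is unlike the split of the 22. The share called lower by motif over all genes, at the threshold of the 22, is not given here. Among the 12 were the first A of the Aldoa stop codon, base 1325 in CTAAC, with 18.9% of 1508 calls in DMSO and 16.3% of 707 in STM2457. Another was Ldha base 1749 in AAATA, in a stretch of A like that of Tpi1, with 10.1% of 179 calls in DMSO and 9.73% of 113 in STM2457. Others of the 12 moved more. Pgam1 base 1091 in TAACG went from 19.5% of 41 calls in DMSO to 6.52% of 46 in STM2457 (adjusted p 0.161, Fisher's exact test). Pgam1 base 1010 in GCAGA went from 3 of 29 calls to 0 of 32 (adjusted p 0.156, Fisher's exact test). Pgam1 base 1351 in TCATG rose from 4.44% of 45 calls to 17.8% of 45 (adjusted p 0.140, Fisher's exact test). Coverage at these Pgam1 positions was low.

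**Figure D2:**
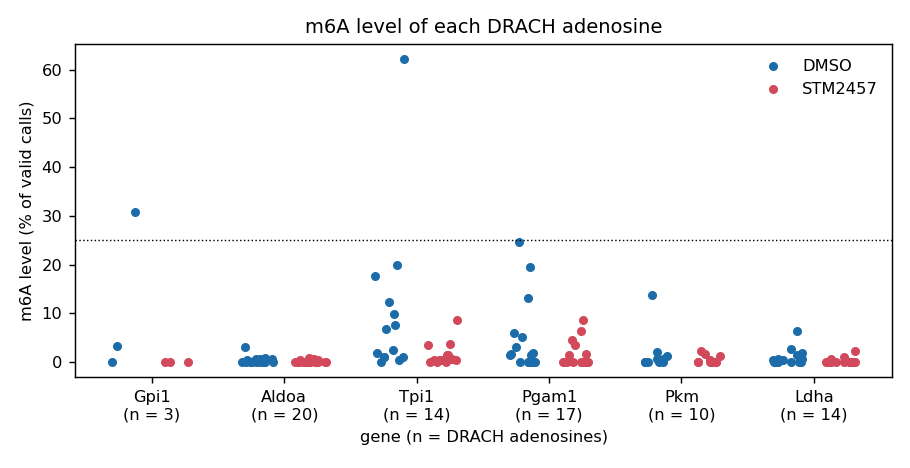
m6A level (y axis, % of valid calls) of each of the 78 DRACH adenosines of the 6 covered members in DMSO and in STM2457, by gene (x axis, in the order of the pathway, n is the number of DRACH adenosines). Points are shifted sideways to separate them, and the dotted line is 25%. In DMSO only 1 adenosine of Tpi1 and 1 of Gpi1 lie above the line, and in STM2457 all lie below 10%.

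Most DRACH adenosines of these mRNAs had little m6A. Of 78, 30 had no m6A call in DMSO, 7 had a level between 10% and 25%, and 2, or 2.56% (0.312 to 8.96), had 25% or more. Over all genes 5464 of 38029, or 14.4% (14.02 to 14.7), had 25% or more. The median level of the 78 was 0.589% in DMSO, against 1.41% over all genes. Taking only positions more than 100 bases from an exon junction, 2 of 55, 3.64% (0.443 to 12.5), stood against 20.8% over all genes. Within 100 bases of a junction, 0 of 23 stood against 2.11%. The motifs differed as well, since 9 of the 78 started with GGAC, against 7994 of the 38029. Of these 9, 1 had 25% or more, 11.1% (0.281 to 48.2), against 34.8% over all genes. Of the other 69, 1 did, 1.45% (0.0367 to 7.81), against 8.94%. Adenosines of 1 gene share reads, and no test was made of these shares. In STM2457 none of the 78 reached 10%. After STM2457, 42 had a lower level, 26 the same and 10 a higher one, the last by small amounts that include counting error. In WT, 1 of the 55 DRACH adenosines covered in the Mettl5 dataset, 1.82% (0.0460 to 9.72), reached 25%. Over all genes 8.14% did in WT, which lies inside that interval.

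The members differed among themselves in pooled level, and these differences were not tested. Aldoa was the least methylated, with 0.665% of calls (0.552 to 0.794) at its 20 DRACH adenosines in DMSO and 0.248% (0.155 to 0.375) in STM2457. Of those 20, 18 lay within 100 bases of an exon junction, and its highest was 3.13%. Ldha had 1.04% (0.681 to 1.52) at 14 adenosines in DMSO and 0.297% (0.0810 to 0.759) in STM2457, although 11 of the 14 lay further than 100 bases from a junction. Its highest was 6.43% in DMSO. Pkm had 1.75% (1.12 to 2.62) at 10 in DMSO and 0.462% (0.170 to 1.003) in STM2457, and the position at base 2147 is not in this sum, since the reference letters are not DRACH.

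Pgam1 had 4.38% (3.19 to 5.85) at 17 adenosines in DMSO and 1.41% (0.771 to 2.35) in STM2457. Gpi1 had 10.6% (4.96 to 19.2) at 3 adenosines in DMSO and 0 of 123 calls in STM2457, with an upper bound of 2.95%. The intervals of Aldoa, Pgam1 and Tpi1 in DMSO did not overlap, and those of Aldoa and Ldha, of Ldha and Pkm, and of Gpi1 with Tpi1 and with Pgam1 did. They take each call as independent, although adenosines of 1 gene share reads, so they are too narrow to compare genes. In Tpi1, base 961 gave 563 of the 1309 m6A calls in DMSO, and the median adenosine had 4.66%. Against 1590 genes with at least 10 DRACH adenosines, whose median was 9.19%, Aldoa stood at percentile 5.16, Ldha at 8.24, Pkm at 12.9, Pgam1 at 28.9 and Tpi1 at 54.3. Of these genes, 23.4% had no DRACH adenosine at 25% or more.

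The second question was whether loss of Mettl5 changes m6A on these mRNAs. No member site was called in either clone. Of 5 member sites in the Mettl5 dataset, none was called in clone #1 or in clone #2 by Fisher's exact test, at an adjusted or an unadjusted p below 0.05. Over all 1886 sites, 0.265% were called lower and 0.265% higher in clone #1, and 0.318% and 0.265% in clone #2. At an unadjusted p below 0.05, 1.64% were lower and 5.14% higher in clone #1, and 2.17% and 5.78% in clone #2.

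Tpi1 base 961 was m6A in 120 of 226 calls in WT, 53.1% (46.4 to 59.7). It was m6A in 111 of 207 in clone #1, 53.6% (46.6 to 60.6), and in 137 of 235 in clone #2, 58.3% (51.7 to 64.7). The intervals of all 3 libraries overlapped, and the adjusted p by Fisher's exact test was 1 in clone #1 and 0.874 in clone #2. Among the 4 positions of Tpi1 that fell after STM2457, base 961 was the highest and base 1231 the lowest in each of the 5 libraries. Base 1172 had 20.5%, 18.6% and 22.4% in WT, clone #1 and clone #2. Base 1176 had 14.4%, 19.3% and 12.7%, and base 1231 had 8.58%, 9.90% and 9.61%.

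Both Pkm positions were covered by 46 to 79 calls. Base 2102 had 6.67% in WT, 8.70% in clone #1 and 15.6% in clone #2, and base 2147 had 11.5%, 20% and 22.8%. Each was higher in both clones than in WT, and neither passed the test, with adjusted p-values by Fisher's exact test from 0.823 to 1. The interval of base 2147 in WT, 4.74 to 22.2, overlapped those of the clones, 10.03 to 33.7 and 14.1 to 33.6. What size of change could be called at this coverage was not tested.

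The other 4 member sites were not DRACH. Aldoa base 982, in CCATG in the coding sequence in exon 7, had 39.8% of 347 calls in WT, 40.2% of 403 in clone #1 and 41.4% of 423 in clone #2. In the METTL3 inhibition dataset it had 14.7% of 1353 calls in DMSO (12.9 to 16.7) and 15.7% of 575 in STM2457 (12.8 to 18.9). Its intervals overlapped within each dataset and not between the datasets. Its failed share was 31.8% to 36.5% in the 5 libraries, and its surrounding 31 bases also occur in a transcript of Gm5276. What set this difference was not tested, since line and batch differ between the datasets.

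Aldoa base 473 had 15.1% of 53 calls in WT, 26.6% of 79 in clone #1 and 27.3% of 132 in clone #2, with intervals that overlapped. Tpi1 base 1463 had 22.6% of 137, 18.6% of 129 and 26.8% of 41. Ldha base 1371, in GTACA 90 bases after the stop codon, had 17.9% of 28, 22.9% of 35 and 25% of 32, and 9.80% of 153 in DMSO and 7.69% of 78 in STM2457. Taking positions at 10% or more in any library, 21 lay on the members and none was called, the lowest adjusted p by Fisher's exact test being 0.737. Over all 8409 such positions, 0.0714% were called lower and 0.0119% higher in clone #1, and 0.0714% and 0.0832% in clone #2. At an unadjusted p below 0.05, 1 of the 21 was lower in clone #2, Pkm base 2388, with 13.04% of 69 calls in WT, 12.7% of 55 in clone #1 and 0 of 38 in clone #2. Over all positions, 2.45% were lower in clone #2 by that measure. Over the 55 DRACH adenosines together, 3.64% (3.26 to 4.05) of calls were m6A in the WT library, 3.37% (3.01 to 3.75) in clone #1 and 3.73% (3.36 to 4.12) in clone #2.

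**Figure D3:**
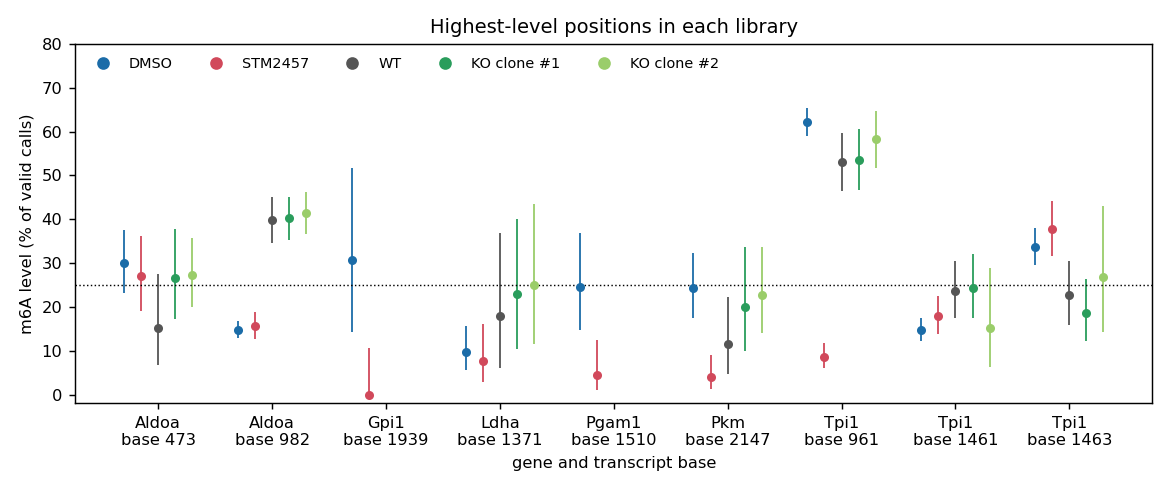
m6A level (y axis, % of valid calls) in each library of the member positions with 24% or more in at least 1 library, named by gene and transcript base (x axis). Bars are exact 95% binomial intervals, the dotted line is 25%, and Gpi1 and Pgam1 had no positions in the Mettl5 dataset. Tpi1 base 961 lies between 53.1% and 62.1% in 4 libraries and at 8.62% in STM2457, and Aldoa base 982 lies near 15% in DMSO and STM2457 and near 40% in the other libraries.

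The third comparison was the amount of each mRNA, as scaled coverage. Fewer cells with an mRNA and less of it per cell cannot be told apart here, and with 1 library per treatment there is no test. Aldoa had 14.5 in DMSO and 9.21 in STM2457, a ratio of 0.637. Tpi1 had 11.8 and 7.44, a ratio of 0.632, and Ldha 2.40 and 1.73, a ratio of 0.721. Those 3 had the highest coverage of the members in DMSO, and all were lower in STM2457.

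Pkm had 1.68 in DMSO and 2.22 in STM2457, Pgam1 0.742 and 1.005, and Gpi1 0.380 and 0.732, with ratios of 1.32, 1.35 and 1.93. The Gpi1 value rests on 27 positions with 25 to 31 valid calls in DMSO, at the edge of the minimum of 25 that every position of the files has in each library. At least 1.5-fold lower were 2 of 6 members and 5.13% of 2515 genes with at least 20 positions, and at least 1.5-fold higher were 1 of 6 and 13.4%. The median ratio over all genes was 1.08, or 0.11 on the log2 scale. Relative to it the ratios were 0.590 for Aldoa, 0.586 for Tpi1, 0.668 for Ldha, 1.22 for Pkm, 1.25 for Pgam1 and 1.79 for Gpi1. Of the 3 members with a lower ratio, Aldoa and Ldha had the lowest pooled DRACH levels in DMSO and Tpi1 the highest among members with at least 10 DRACH adenosines.

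In the Mettl5 dataset, Aldoa had 13.4 in WT, 19.3 in clone #1 and 18.2 in clone #2. Tpi1 had 9.43, 10.5 and 10.1, Ldha 1.65, 2.70 and 2.10, and Pkm 2.77, 2.62 and 3.13. The median ratios over all 970 genes with at least 20 positions were 1.09 for clone #1 and 1.12 for clone #2, or 0.13 and 0.16 on the log2 scale. Of 4 members, 1 was at least 1.5-fold higher in clone #1, against 11.1% of all genes. This was Ldha, at 1.63, and relative to the median ratio it was at 1.495, below that limit. In clone #2 no member was, against 14.6%. None was at least 1.5-fold lower in clone #1 or clone #2, against 4.54% and 7.94%. The other ratios lay between 0.946 and 1.44. Relative to the median ratio Tpi1 was at 1.02 in clone #1 and 0.961 in clone #2, and Pkm at 0.866 and 1.01, so the side of 1 on which Tpi1 lay in clone #2 turned with the scaling.

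**Figure D4:**
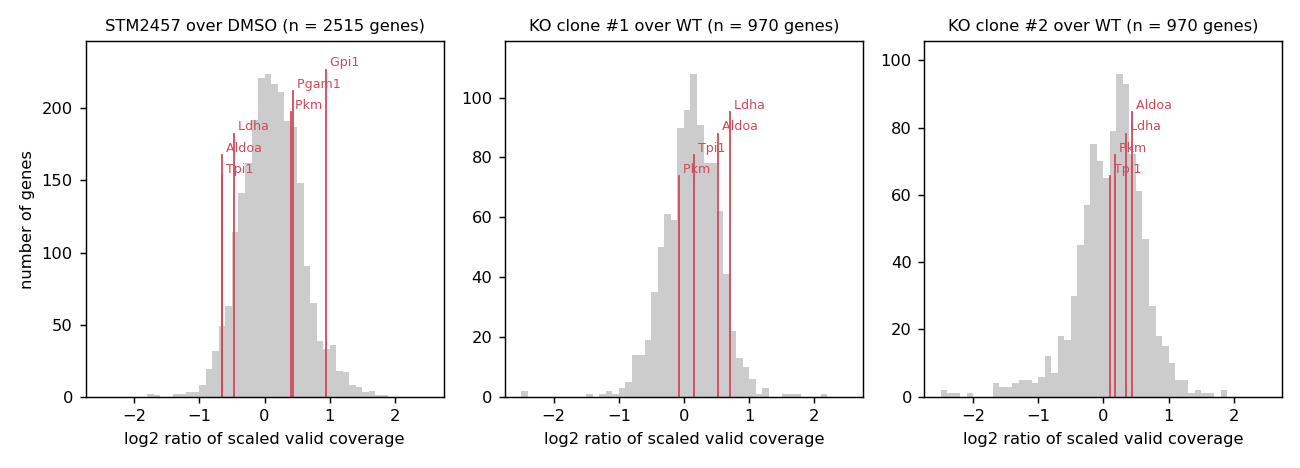
Histograms of the log2 ratio of scaled valid coverage over all genes with at least 20 positions (x axis; y axis, number of genes) for STM2457 over DMSO (2515 genes) and for each Mettl5-KO clone over WT (970 genes). Red lines mark the glycolytic genes, and log2 ratios beyond 2.5 on either side are drawn at the edge. After STM2457, Tpi1 and Aldoa lie on the lower flank, at -0.66 and -0.65, and Gpi1 on the upper, at 0.95.

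Coverage along Aldoa was not even. It changed little within exons 2 to 5 and within exons 6 to 9, and between these blocks it stepped up at an intron of 294 bases, while the intron of 428 bases before exon 4 showed no step. The mean was 291 valid calls per position in exons 2 to 5 and 1801 in exons 6 to 9 in DMSO, 6.20-fold more. The fold was 4.82 in STM2457, 6.87 in WT, 5.01 in clone #1 and, lowest, 2.94 in clone #2. The ratio between libraries therefore depended on the exons. STM2457 over DMSO was 0.791 in exons 2 to 5 and 0.615 in exons 6 to 9, clone #1 over WT was 1.90 and 1.39, and clone #2 over WT was 2.79 and 1.20. In clone #1 coverage was above WT in every one of these exons. In clone #2 it was above WT in exons 2 to 8 and below it in exon 9, at 0.920, and over the last 300 covered bases its ratio was 0.948 in place of 1.35. Within exons 6 to 9, coverage of the last exon in clone #2 was 0.661 of that in exon 8, and in the other libraries this value was 0.921 to 0.998.

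**Figure D5:**
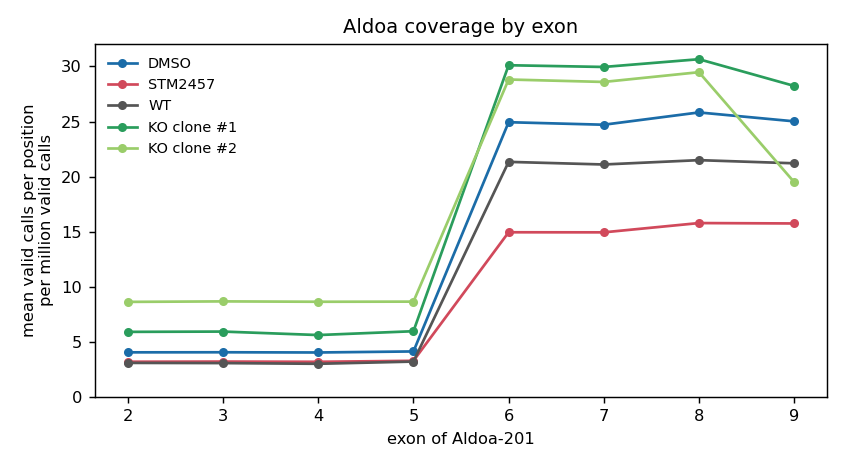
Mean valid calls per position, scaled to 1000000 valid calls in the library (y axis), in exons 2 to 9 of Aldoa-201 (x axis) in the 5 libraries, each a line. Every library steps up between exons 5 and 6, by 3.33-fold in clone #2 and by 4.57-fold to 6.67-fold in the others.

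Eno1, enolase, had no position, but its retrogene Eno1b, a copy made by reverse transcription of the mRNA, had 391 in the METTL3 inhibition dataset. Of these, 343 had a surrounding stretch of 31 bases that also occurs in Eno1, and the transcripts differed at 17 of 1695 aligned bases. At the 1 covered base where the Eno1b reference alone has A, 98.9% of 3003 reads in DMSO had A. At the 1 covered base where the Eno1 reference alone has A, 99.2% of 3077 reads had A as well. From which of the genes these reads came was not settled. Its scaled coverage of 38.5 in DMSO was above that of every member. It was 22.2 in STM2457, a ratio of 0.576. In WT it had 25.1, in clone #1 47.2 and in clone #2 54.1, ratios of 1.88 and 2.16. Its 30 DRACH adenosines had 0.716% m6A in DMSO and 0.222% in STM2457, and the highest of them had 6.58% in DMSO.

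Other genes around glycolysis held more sites than the members. Of 30 such genes, transporters, regulators, other isoenzymes and enzymes of the neighbouring pathways, 15 had positions in the METTL3 inhibition dataset. They held 46 sites on 9 genes, of which 43 were called lower after STM2457 and none higher by the same test. The glucose transporters led, with 12 sites on Slc2a1, of which 11 were lower, and 8 on Slc2a3, of which 7 were lower. Tigar, a fructose bisphosphatase, had 7 sites, all lower. Of their 333 DRACH adenosines, 43, or 12.9%, had 25% or more in DMSO, near the 14.4% of all genes. Over those adenosines together, 9.85% of calls were m6A in DMSO and 2.35% in STM2457, where the members had 4.28% and 0.742%. In scaled coverage, 2 of 14 such genes with at least 20 positions were at least 1.5-fold lower after STM2457, the phosphofructokinase subunits Pfkl, at 0.609, and Pfkp, at 0.576. The lactate transporter Slc16a1 was higher, at 1.56. In the Mettl5 dataset 10 of the 30 had positions, with 52 sites, of which none was called in either clone.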

How the data were processed

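Reads were split by barcode with WarpDemuX by the authors, basecalled, m6A-called and aligned to mm10 with dorado, and tabulated with modkit. The submitters' processing notes also name bedtools. The deposited counts are valid, m6A, failed and other calls per position, not normalised, and the deposited percent is m6A over valid calls. Only positions with at least 25 valid calls in every library of a dataset were present, which favours abundant mRNAs and 3′ ends. Calls failing the confidence filter are in neither count. Positions were assigned to GENCODE M21 exons by strand, and the stop codon was counted as coding. Place and sequence came from the APPRIS principal transcript where it held the position, and otherwise from another transcript of the gene.

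Sites were compared by Fisher's exact test, two-sided, against DMSO or WT, with p-values adjusted by Benjamini-Hochberg across every site in the dataset and a threshold of 0.05 (Python 3.11.15, scipy 1.17.1, pandas 2.3.3), after a test on simulated data. Scaled coverage was the mean of valid calls over a gene's positions, scaled to 1000000 valid calls in the library, for genes with at least 20 positions. Named positions were those at 25% or more in any library, then those at 10% or more. The members and lists were chosen with earlier results of these data known. Depth was 54051900 and 71574467 valid calls in the METTL3 inhibition dataset and 17897440 to 22025887 in the Mettl5 dataset. The alternatives varied coverage, level, motif, failed calls, thinning, uniqueness of sequence, exon set and scaling.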

Additional observations from a re-analysis of the deposited data

How the results depend on the processing

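The number of member sites lower after STM2457 was 2, and it was 1 with at least 50 valid calls, where Gpi1 dropped out, 8 at a level of 10% or more and 1 at 50% or more. The number changed in both Mettl5-KO clones was 0 under every alternative run, also with either clone left out. The relative decrease over the sites of Tpi1 was 62.7%, and it was 37.1% as the mean of the sites and 86.1% with failed calls in the denominator, which removed base 1463. The number of genes at least 1.5-fold higher in clone #1 was 1, and it was 0 when scaled by the median ratio over genes and 0 with the total without ribosomal and mitochondrial RNA. In clone #2 it was 0, and it was 1 by the highest position of each gene. Over all adenosines in place of DRACH, the pooled level was 1.19% in DMSO, 0.911% in STM2457, 1.59% in WT, 1.56% in clone #1 and 1.65% in clone #2. Over sequence in no other gene it was 4.53% in DMSO, against 4.28%. All 90 recomputed differences at named sites kept their side of the threshold, and 3 turned their sign, each between clone #1 and WT and with coverage thinned to the lowest library. In percentage points these were Tpi1 base 1463, from -4.02 to 2.44, Tpi1 base 961, from 0.526 to -0.966, and Aldoa base 982, from 0.429 to -1.44, none of them called. Of 70 recomputed log2 coverage ratios 7 turned their sign, all in the Mettl5 dataset, for Tpi1 in both clones and Pkm and Aldoa in clone #2. Gpi1 had no value with at least 50 valid calls, and neither did Aldoa base 473 with failed calls counted. No paired analysis was possible because the labels give no replicate numbers that groups share. Coverage was low at several named positions, with 26 calls in DMSO at Gpi1 base 1939 and 28 in WT at Ldha base 1371.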
